A study of Homo sapiens with 4 samples.

Results

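Of 22276 H3K27Ac peaks that paired one to one between DHT-treated and vehicle-treated LNCaP cells and reached a height of 30 tags with DHT, 2305 (10.3%) were at least 2 times as tall with DHT. These 2305 doubled peaks, taken from 47574 one-to-one pairs in all, are described here. A pair is a DHT peak and a vehicle peak that share at least 1 bp and meet no further peak of the other list. The height of a peak is the largest pileup of sequenced tags in it, and the doubled peaks were chosen by both heights of a pair, so their heights and ratios are a description and carry no test. Doubled peaks were set beside the 19971 other pairs with a DHT height of 30 or more, beside 647 peaks of that height that met no vehicle peak, and beside 255 pairs that were halved by DHT.

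LNCaP is a human prostate cancer cell line of luminal character that depends on androgen. The series holds H3K27Ac ChIP-seq of LNCaP cells given 10 nM DHT for 4 h in charcoal-stripped serum, of cells in the same serum given ethanol for 4 h in place of DHT, and TCF7L2 ChIP-seq of cells in serum that was not stripped, with no DHT treatment named. The H3K27Ac cells were at passage 20 and the TCF7L2 cells at passage 15. There was 1 library for each, no source describes replicate cultures, and the spread between cultures was not measured, so every difference below is between 2 libraries. The 3 lists held 60752 DHT, 57623 vehicle and 20955 TCF7L2 peaks. A peak stood over the promoter of 14 of 14 luminal prostate marker genes with DHT and 13 of 14 with vehicle, and over none of 4 basal, 4 leukocyte and 3 neuroendocrine marker genes in either list. In both lists a peak also stood over the promoter of 1 of 4 stromal and 1 of 2 endothelial marker genes.

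Dihydrotestosterone (DHT) is the potent androgen of the prostate. Androgen signaling acts on DNA through androgen response elements, which are inverted repeats of the hexamer AGAACA, often at enhancers already opened by the forkhead factor FOXA1. Histone acetyltransferases are recruited there, and acetylation of lysine 27 of histone H3 (H3K27Ac) marks active enhancers and promoters. TCF7L2 is a DNA-binding factor of the Wnt pathway.

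The full response element, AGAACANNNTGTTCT with any base at N, stood within 500 bp of the centre of 7 doubled peaks (0.304%) and of 9 other pairs (0.0451%). It was present in 20 of all 47574 one-to-one pairs (0.0420%). Of the 7, 6 are shown as examples with every fixed base kept, and the other is not shown here. They were picked after the values had been seen. Each is given 5′ to 3′ on the + strand of GRCh37 with 15 bp on either side, the element in capitals, and is named by the nearest protein-coding start.
ANGPTL4, chr19:8439234-8439278: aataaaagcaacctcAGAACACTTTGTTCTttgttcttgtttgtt
DDIT4, chr10:74008725-74008769: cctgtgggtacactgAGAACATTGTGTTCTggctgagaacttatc
TMEM200A, chr6:130951698-130951742: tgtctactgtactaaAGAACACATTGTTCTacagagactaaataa
RAMP1, chr2:238787712-238787756: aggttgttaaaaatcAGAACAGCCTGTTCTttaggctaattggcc
SLITRK3, chr3:164930623-164930667: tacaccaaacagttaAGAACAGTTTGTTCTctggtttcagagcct
CBLN2, chr18:69474907-69474951: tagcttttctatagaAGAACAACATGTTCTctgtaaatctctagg

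The peak near ANGPTL4, which encodes a secreted inhibitor of lipoprotein lipase, had 68 tags with DHT against 15 with vehicle. That near DDIT4, an inhibitor of mTORC1 signaling, had 72 tags with DHT against 17 with vehicle. Both genes are also known targets of the glucocorticoid receptor, which binds the same element. The TMEM200A peak had 41 tags with DHT against 11 with vehicle, and lay 193 kb from that start. The peak in an intron of RAMP1, a partner protein of calcitonin family receptors, had 40 tags with DHT against 16 with vehicle. Peaks near SLITRK3 and CBLN2, which encode synaptic proteins, had 53 and 32 DHT tags, against 24 and 16 vehicle tags. All 6 were well below the tallest doubled peak, which had 166 tags with DHT, and the elements lay 129 to 285 bp from the peak centres.

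Elements with up to 2 of the 12 fixed bases changed were far more frequent. They were searched on both strands in the same window, and 427 of 2305 doubled peaks held at least 1 (18.5%, 95% Wilson interval 17.0% to 20.2%), against 1423 of 19971 other pairs (7.13%, 6.78% to 7.49%) and 7.98% of all one-to-one pairs. Away from promoters the shares were 18.7% of 2173 doubled peaks and 8.69% of 13287 other pairs, with intervals that did not overlap. Of 251 such halved pairs 14 held an element (5.58%, 3.35% to 9.14%), and of 632 such peaks found only with DHT 165 did (26.1%, 22.8% to 29.7%). The intervals cover counting error only, and regions are not replicates of a condition. Elements from the C1orf116 and IGF1R peaks are shown because these are androgen-induced genes. The C1orf116 element has 1 changed base and that of IGF1R has 2.
C1orf116, chr1:207183506-207183550: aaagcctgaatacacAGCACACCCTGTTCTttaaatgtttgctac
IGF1R, chr15:99332470-99332514: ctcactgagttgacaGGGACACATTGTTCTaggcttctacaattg

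The element nearest to C1orf116 lay 41 bp from the centre of a peak with 79 tags with DHT against 14 with vehicle. The IGF1R element lay 183 bp from the centre of a peak of 153 tags with DHT against 55 with vehicle. Near-identical copies also occur: peaks in introns of POTEM, POTEH and POTEG had DHT heights of 87, 83 and 87 tags, against vehicle heights of 14, 14 and 15, and all 3 held the same element with 1 changed base. These genes are close copies of one another, so the tags of each are uncertain.

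The share with an element followed the ratio. Away from promoters it was 5.72% (4.79% to 6.82%) of 2027 pairs with a DHT over vehicle ratio from 0.5 to under 0.8, and 7.30% of those from 0.8 to under 1. It was 13.0% (11.5% to 14.8%) of the 1633 pairs from 1.5 to under 2, just below the limit of the doubled peaks. Within the doubled peaks it was 16.9% (14.99% to 19.05%) for ratios from 2 to under 3, 19.4% (16.2% to 23.1%) from 3 to under 4 and 24.4% (20.3% to 29.2%) at 4 or more. The neighbouring classes of doubled peaks had overlapping intervals, and the intervals of the lowest and the highest of these 3 classes did not overlap. The share was also higher in doubled peaks at matched height. Of pairs with a vehicle height from 15 to under 30 tags, 18.8% (16.6% to 21.2%) of the doubled peaks and 9.93% (8.57% to 11.5%) of the others held an element. Base composition differed as well, with a median G+C content within 500 bp of the centre of 38.9% in doubled peaks and 40.3% in other pairs away from promoters. Below 40% G+C the element was in 20.7% of doubled peaks and 9.86% of other pairs. At 50% or more it was in 16.2% (10.2% to 24.7%) of doubled peaks and 5.96% (4.93% to 7.19%) of other pairs.

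**Figure D1:**
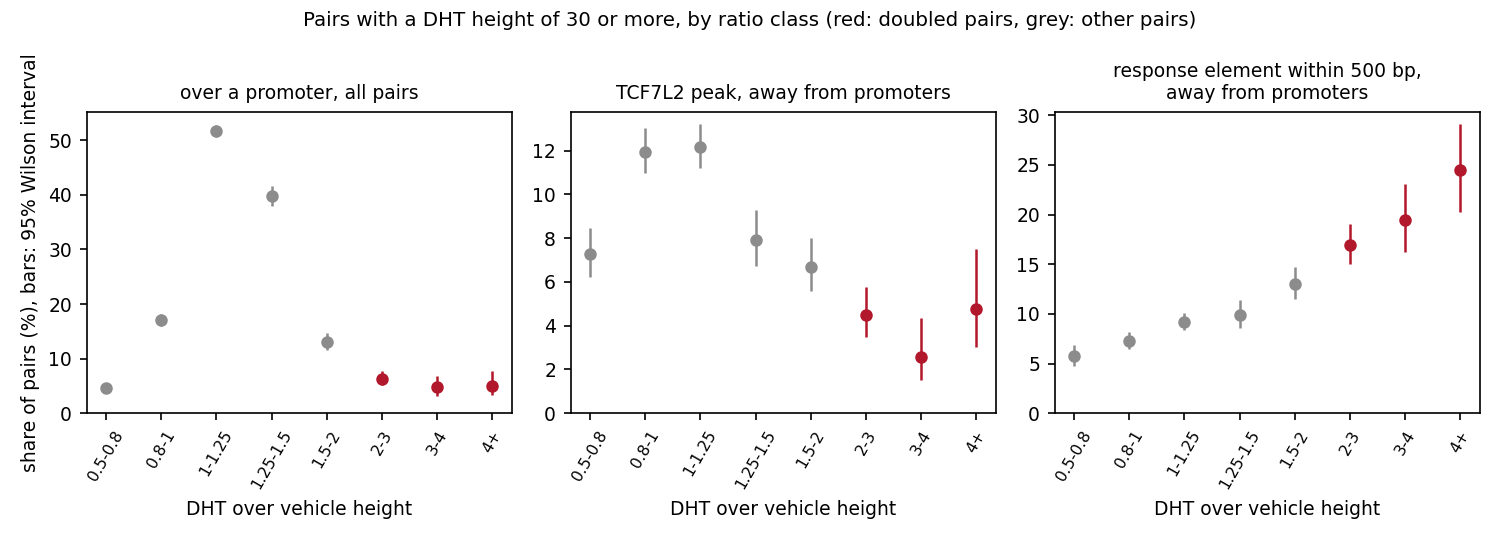
Share of pairs with a DHT height of 30 tags or more that lay over a promoter (left), held a TCF7L2 peak away from promoters (middle) or held a response element within 500 bp of the centre away from promoters (right), by DHT over vehicle height; points are shares in percent, bars 95% Wilson intervals, red the doubled peaks and grey the other pairs. The element share climbs to 24.4% in the highest ratio class (the 24 pairs below 0.5 are not drawn), while the promoter share is largest, at 51.7%, in the class just above equal heights.

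The count moved with the spacing between the hexamers. With gaps of 0, 1, 2, 4, 5 or 6 bases in place of 3, and the same 2 changes allowed, 9.25% to 11.6% of doubled peaks away from promoters held a match, against 7.65% to 8.66% of other pairs. A reordered element, GAAACANNNTGTTTC, was in 10.9% (9.66% to 12.3%) of doubled peaks, 8.60% (8.14% to 9.09%) of other pairs and 9.29% of all pairs. Its intervals for doubled peaks and other pairs did not overlap, so this control also differed between them, by less than the element did. The gap of 3 bases thus gave the widest separation of the 7 gaps counted. Among the elements themselves, the C at position 5, counted from 1 at the 5′ end, was kept in 88.1% of 470 elements in doubled peaks and in 75.4% of 1506 elements in other pairs. The G at position 11, its partner in the other hexamer, was kept in 83.8% of those in doubled peaks and 75.9% of those in other pairs. Other positions went the other way, with position 3 kept in 78.9% of those in doubled peaks and 85.3% of those in other pairs, and position 15 in 82.8% of those in doubled peaks and 87.8% of those in other pairs. Positions 1, 2, 10 and 13 were also kept less often in doubled peaks, and the remaining 4 slightly more often.

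Elements were most dense at the centre. In the 200 bp around it, doubled peaks away from promoters held 0.301 elements per kb and other pairs 0.103. In the outermost 500 bp of the 2000 bp scanned on either side doubled peaks held 0.0887 per kb and other pairs 0.0787. The gap between them was thus widest near the centre. Peaks found only with DHT held 0.554 per kb in the central bin, more than doubled peaks. The forkhead motif TGTTTAC, bound by FOXA1, was also most dense at the centre, with 0.607 per kb in doubled peaks and 0.450 in other pairs. Within 500 bp it was found in 33.3% (31.3% to 35.3%) of doubled peaks, 29.5% (28.7% to 30.3%) of other pairs and 29.97% of all pairs. Below 40% G+C the shares were closer, with 35.4% (32.8% to 38.0%) of doubled peaks and 34.8% (33.6% to 35.9%) of other pairs. The intervals overlapped there, from 40% to under 45% G+C and at a vehicle height from 15 to under 30 tags. They also overlapped from 45% to under 50% G+C, where the shares were 30.7% of doubled peaks and 25.4% of other pairs. At 50% G+C or more they were apart (25.3% of doubled peaks and 15.0% of other pairs). By DHT height they were apart from 45 to under 70 tags (34.3% of doubled peaks and 29.0% of other pairs) and overlapped below and above that class. Its reordered form TTGATTC was in 14.1% (12.7% to 15.7%) of doubled peaks and 13.3% (12.7% to 13.9%) of other pairs. Doubled peaks held both an element and a forkhead motif in 6.58% of cases and other pairs in 2.55%. A forkhead motif without an element was in 26.7% of doubled peaks and 26.96% of other pairs, with overlapping intervals. These shares are of all pairs of a group away from promoters, and doubled peaks more often held an element. Among pairs with no element, 580 doubled peaks had a forkhead motif and 1186 did not, against 3582 and 8551 other pairs. Among pairs with an element the counts were 143 and 264 doubled peaks, and 339 and 815 other pairs.

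**Figure D2:**
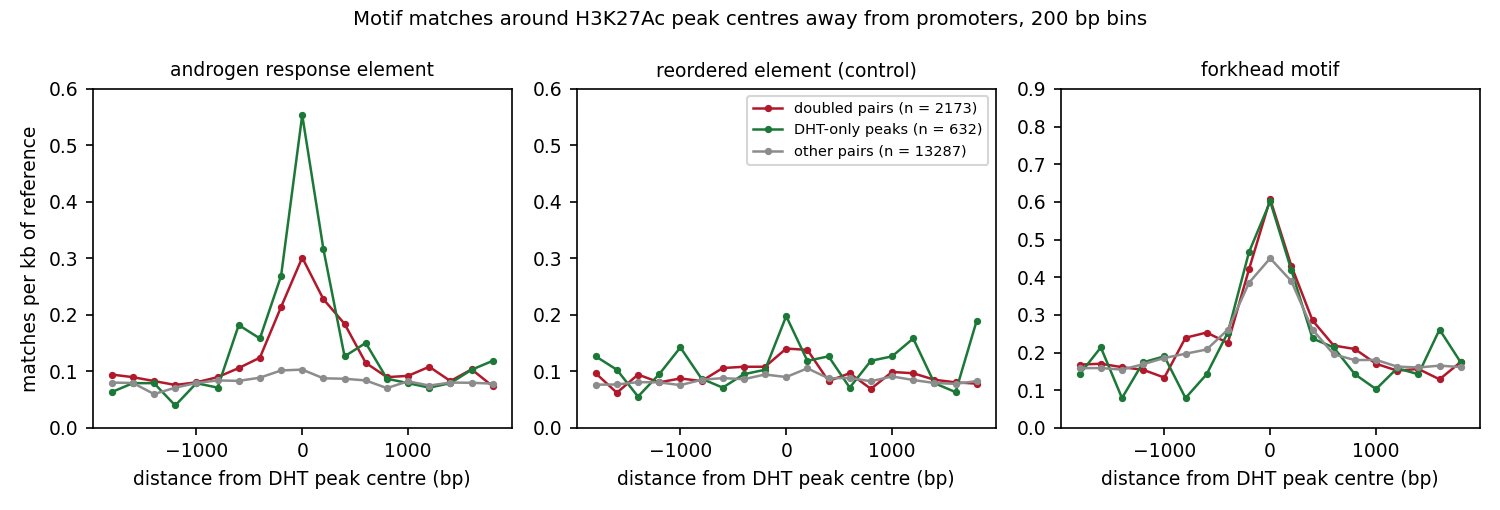
Matches per kb of reference sequence against distance from the DHT peak centre in bp, in 200 bp bins, for doubled peaks (red), peaks found only with DHT (green) and other pairs (grey), all away from promoters; the panels are the androgen response element, its reordered control and the forkhead motif. The element peaks at 0.301 per kb at the centre of doubled peaks against 0.103 in other pairs, and the forkhead motif peaks in all 3 groups. The control is also denser at the centre of doubled peaks (0.140 per kb) than of other pairs (0.0899).

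Of the other motifs, GRHL, the GC box and ETS were less frequent in doubled peaks than in other pairs, GATA and TCF were slightly more frequent, and AP-1 and HOXB13 had overlapping intervals. The GRHL motif AACCGGTT with up to 1 change, bound by grainyhead factors of epithelia, was in 10.8% (9.58% to 12.2%) of doubled peaks away from promoters, 15.3% (14.7% to 15.9%) of other pairs and 13.6% of all pairs. The GC box GGGCGGGG, a site of SP and KLF factors, was in 0.966% (0.633% to 1.47%) of doubled peaks, 4.13% (3.81% to 4.48%) of other pairs and 3.25% of all pairs, which differ in G+C content as above. The ETS motif CCGGAAG was in 2.30% (1.75% to 3.02%) of doubled peaks, 3.48% (3.18% to 3.80%) of other pairs and 3.07% of all pairs. For AP-1, the factor of FOS and JUN, TGANTCA was in 31.7% (29.7% to 33.6%) of doubled peaks, 33.9% (33.1% to 34.7%) of other pairs and 33.3% of all pairs. The motif CCAATAAA of the homeodomain factor HOXB13 was in 7.59% (6.55% to 8.78%) of doubled peaks, 8.24% (7.79% to 8.72%) of other pairs and 8.37% of all pairs. The GATA motif AGATAAG was in 17.9% (16.4% to 19.6%) of doubled peaks, 15.1% (14.5% to 15.7%) of other pairs and 16.2% of all pairs, and the TCF motif CTTTGAT was in 18.3% (16.7% to 19.9%) of doubled peaks, 15.5% (14.9% to 16.1%) of other pairs and 15.97% of all pairs. None of the motifs in this paragraph was counted at matched base composition, and the part of G+C content in their differences was not tested. A match is a run of letters and not a measured binding site.

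The heights of the doubled peaks spanned a wide range. With DHT the median was 52 tags, the quartiles 39 and 72 and the highest 166, while with vehicle the median was 17, the quartiles 13 and 25 and the highest 73. Other pairs had the same median with DHT, 52 tags, and a median of 50 with vehicle. The ratio had a median of 2.69 and a highest value of 11.5 in doubled peaks, where other pairs had a median of 1.08. Most doubled peaks, 1902 of 2305, had fewer than 30 tags with vehicle. The vehicle peaks paired with them were thus mostly small. The exact 95% Poisson intervals of the 2 heights were apart in 2008 doubled peaks (87.1%), and in 11.1% of all pairs with a DHT height of 30 or more with DHT higher, a count that the rule largely fixes and from which nothing is read. In the other direction, 255 of 20199 pairs with a vehicle height of 30 or more (1.26%) were at most 0.5 times as tall with DHT.

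**Figure D3:**
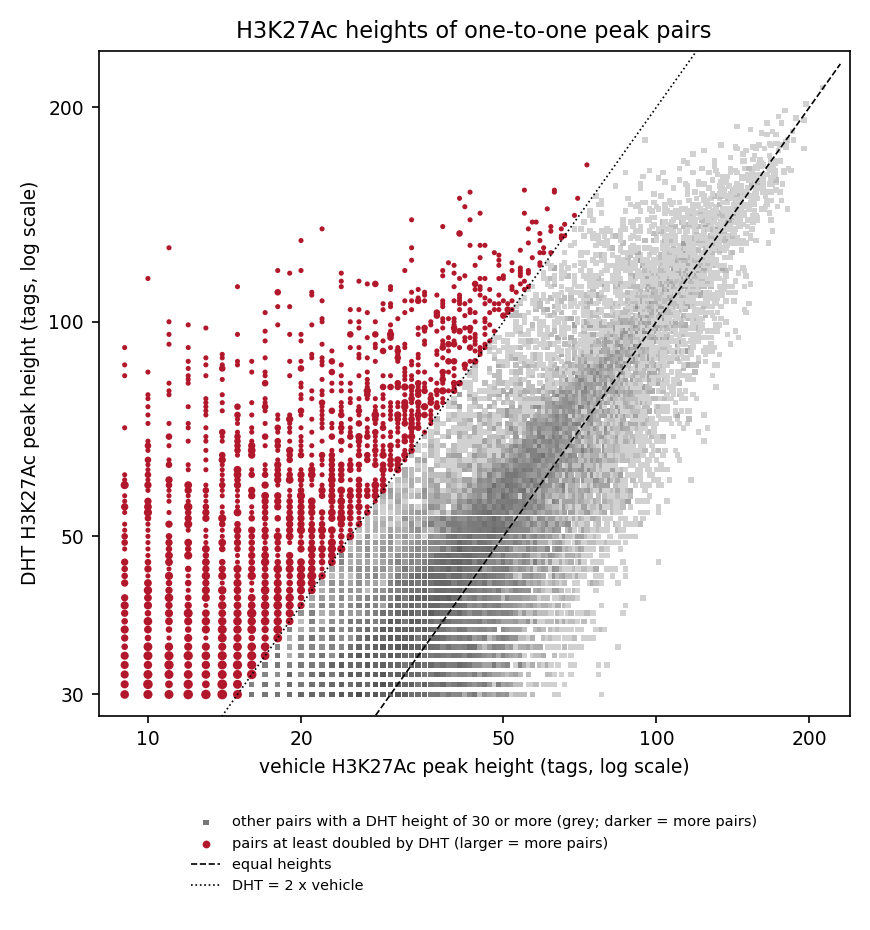
DHT peak height (vertical, tags, log scale) against vehicle peak height (horizontal, tags, log scale) for the 22276 one-to-one pairs with a DHT height of 30 or more; red points are the 2305 doubled peaks and grey squares the others, with more pairs shown larger or darker, and dashed and dotted lines for equal heights and 2 times the vehicle height. Doubled peaks reach 166 tags with DHT against 73 with vehicle.

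Doubled peaks were also wider with DHT, a measure that comes with height in these lists. The median width was 2549 bp with DHT and 1559 bp with vehicle in doubled peaks. In 98.9% of them the vehicle peak lay wholly inside the DHT peak, and the median shift of the centre was 90 bp. Other pairs had median widths of 2909 bp with DHT and 2849 bp with vehicle. In 43.9% of the other pairs the vehicle peak lay wholly inside the DHT peak, and their median shift of the centre was 60 bp.

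At the limits of the rule, the doubled peaks with a ratio of exactly 2 included peaks nearest to RERE (32 with DHT, 16 with vehicle), ZBTB8B (92 with DHT, 46 with vehicle) and STIL (36 with DHT, 18 with vehicle). The pairs that just missed were nearest to PTGER4 (121 tags with DHT against 61 with vehicle), GJC3 (111 with DHT, 56 with vehicle) and RARB (107 with DHT, 54 with vehicle). At the height limit, peaks near MICOS10 (30 with DHT, 12 with vehicle), CCDC17 (30 with DHT, 12 with vehicle) and SPATA6 (30 with DHT, 14 with vehicle) were inside it. Those near DNAJC16 (29 with DHT, 11 with vehicle), FOXJ3 (29 with DHT, 12 with vehicle) and SYCP1 (29 with DHT, 11 with vehicle) were outside.

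The 15 largest ratios were all found at peaks outside promoters, in introns, in an exon or between genes. Few doubled peaks of any ratio overlapped a promoter (5.73%). The vehicle heights of these 15 were 9 to 12 tags, at or near the lowest height in the vehicle list, 9 tags. Their ratios thus rest on few vehicle tags. The first was a peak on chromosome 7 from 123036960 to 123040439, between genes and 134 kb from the start of IQUB, with 127 tags (interval 106 to 151) with DHT and 11 (5.49 to 19.7) with vehicle. The second lay in an intron of TBCEL, a tubulin cofactor-like gene, on chromosome 11 from 120908610 to 120913649, with 115 tags (94.9 to 138) with DHT and 10 (4.80 to 18.4) with vehicle. A pair of the 15 largest ratios fell in DOCK8, an exchange factor for small GTPases. They had 92 and 96 DHT tags, against 9 and 11 vehicle tags, and stood at 296460 to 301529 and at 311430 to 314249 of chromosome 9. UNC13C, a synaptic vesicle priming factor, had 87 tags with DHT against 9 with vehicle in an intron, and PIK3C3, a phosphatidylinositol kinase, had 84 with DHT against 9 with vehicle at 341 kb from its start. TRPM7, an ion channel with a kinase domain, had 85 tags with DHT against 10 with vehicle in an intron. PLA2G4A, a phospholipase that releases arachidonic acid, was nearest to a peak of 99 tags with DHT against 12 with vehicle at a distance of 931 kb. TMEFF2, a transmembrane protein gene expressed in prostate, was nearest to 1 of 93 tags with DHT against 11 with vehicle at 1280 kb. The nearest start names a peak and does not say which gene it acts on.

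The 10 tallest doubled peaks had 142 to 166 tags with DHT. PACS1, a sorting protein of the secretory pathway, held the tallest in an intron on chromosome 11 from 65955300 to 65960399, with 166 tags (142 to 193) with DHT and 73 (57.2 to 91.8) with vehicle. IGF1R, the receptor of insulin-like growth factor 1, had 153 tags with DHT against 55 with vehicle on chromosome 15 from 99330360 to 99334259. KDM4B, a histone demethylase, had 153 with DHT against 63 with vehicle in an intron. PMEPA1, an androgen-induced gene that restrains TGF-beta signaling, had 149 tags with DHT against 41 with vehicle at 46.2 kb upstream of its start. A further doubled peak near it had 136 with DHT against 38 with vehicle. RAB3B, a small GTPase of secretory vesicles, had 145 tags with DHT against 42 with vehicle in an intron. ORC5, a subunit of the origin recognition complex, had 152 with DHT against 43 with vehicle. UBE2G1, PKP1 and CPSF7 held the 3 of these 10 peaks that overlapped a promoter, with DHT heights of 152, 149 and 144 tags, against vehicle heights of 63, 70 and 61. UBE2G1 encodes a ubiquitin-conjugating enzyme, PKP1 a desmosomal plakophilin and CPSF7 a factor of messenger RNA 3′ end processing. The largest differences in tags were those of the IQUB peak, of ATAD2, a chromatin-bound ATPase (135 tags with DHT against 22 with vehicle), and of R3HDM2 (130 with DHT, 20 with vehicle).

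**Figure D4:**
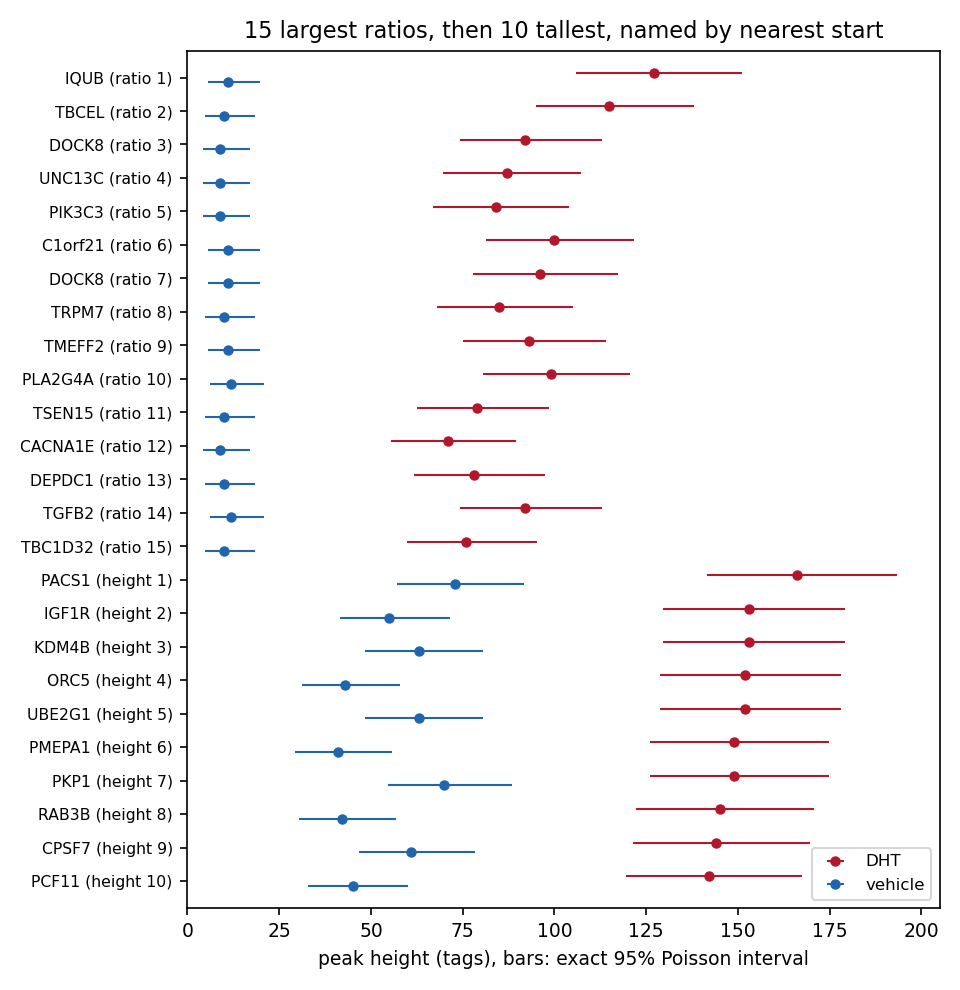
Peak heights in tags (horizontal) with DHT (red) and vehicle (blue) of the doubled peaks with the 15 largest ratios and then the 10 tallest DHT heights, each named by its nearest protein-coding start; bars are exact 95% Poisson intervals. In the upper 15 rows vehicle heights are 9 to 12 tags, and in the lower 10 rows DHT heights are 142 tags or more.

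Most doubled peaks lay away from promoters. Of 2305, 132 (5.73%, 4.85% to 6.75%) overlapped a promoter, taken as 1000 bp before and 100 bp after a protein-coding start, against 6684 of 19971 other pairs (33.5%, 32.8% to 34.1%). Low promoter shares were not particular to doubled peaks, since the share was 1.57% (0.612% to 3.96%) of halved pairs, 2.32% (1.41% to 3.79%) of peaks found only with DHT and 4.61% (3.80% to 5.59%) of pairs with a ratio from 0.5 to under 0.8. Of all doubled peaks 48.6% lay off promoters with the centre in an intron, 41.3% between genes and 4.34% in an exon. Of all other pairs 34.9% lay off promoters in an intron, 28.2% between genes and 3.38% in an exon. The median distance to a start was 36286 bp for doubled peaks and 12869 bp for other pairs, and 5.77% of doubled peaks and 3.58% of other pairs lay over 500 kb away. Promoter peaks that doubled did occur. CHRNA2, a nicotinic receptor subunit, had 84 tags with DHT against 12 with vehicle 54 bp from its start, the largest ratio among the 132. CLDN14, a claudin of tight junctions, had 59 with DHT against 9 with vehicle, NOSTRIN, an adaptor of endothelial nitric oxide synthase, had 55 with DHT against 9 with vehicle, and F5, coagulation factor V, had 54 with DHT against 9 with vehicle. These 4 were chosen after their values had been seen. By chromosome, doubled peaks were 4.25% (2.99% to 6.001%) of the 706 pairs on chromosome 19, the lowest share. The share was 13.2% on each of chromosomes 5 (11.5% to 15.0%), 7 (11.3% to 15.4%) and 8 (11.3% to 15.4%), and 13.1% (10.4% to 16.4%) on chromosome 13.

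Some doubled peaks stood in groups. In all, 777 (33.7%) were in 326 groups in which neighbours lay within 100 kb, a share that was not computed for other pairs. The largest group, 9 peaks over 362 kb of chromosome 5 from 14427690 to 14789639, ran from TRIO to ANKH, a pyrophosphate transporter gene, with 32 to 107 tags with DHT against 11 to 34 with vehicle. It held 9 of 16 eligible pairs there. The spans that follow run from the first to the last doubled peak, so the doubled peaks set them. All 6 eligible pairs in 40.5 kb at CAPZB, a subunit of the actin capping protein, had doubled, with 30 to 83 tags with DHT against 10 to 33 with vehicle, and within 50 kb of the gene 6 of 8 had. All 5 in 21.5 kb at FBXO38, a ubiquitin ligase adaptor, had doubled as well, with 41 to 81 tags with DHT against 18 to 38 with vehicle. So had all 5 in 86.0 kb at SLC26A3, an anion exchanger, and DLD, with 68 to 112 tags with DHT against 15 to 41 with vehicle, and within 50 kb of SLC26A3 alone 3 of 4 had. Long genes collected several: IL1RAPL1 on chromosome X, 1369273 bp long, had 6 within 50 kb out of 16 eligible pairs, and ANK3, an ankyrin gene, had 5 of 22. Among protein-coding genes, 95 had 3 or more doubled peaks within 50 kb. The pair nearest to a doubled peak within 50 kb was itself doubled in 20.8% of 1601 cases, against 8.59% of 15023 for other pairs. A peak found only with DHT lay within 50 kb of 7.25% of doubled peaks and of 2.82% of other pairs. These neighbour values come from the same 2 libraries as the rule and are a description. At promoters of genes nearest to a doubled peak that lay off promoters and within 100 kb, 652 pairs had a median ratio of 1.19 (quartiles 1.09 and 1.34), where 6271 promoter pairs of all genes had 1.13 (1.05 and 1.23).

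Androgen-induced genes were often near a doubled peak. Of 49 such genes, 26 (53.1%, 39.4% to 66.3%) had 1 in the gene or within 50 kb, against 12.8% of 19535 protein-coding genes. This list and the gene lists below were chosen with earlier results of these data known, so the contrast is a description. Some genes share a peak and are not independent units for the interval. Counted by pairs, 37 of the 186 eligible pairs in reach of these genes had doubled (19.9%), against the 10.3% of all eligible pairs. Kallikrein genes shared peaks. A wide peak on chromosome 19 from 51402030 to 51413279, within 50 kb of KLK2, of KLK3, which encodes prostate-specific antigen, and of KLK4, had 103 tags with DHT against 44 with vehicle, and a further 1 near KLK2 and KLK4 had 52 with DHT against 19 with vehicle. TMPRSS2, a serine protease of luminal cells, had 111 tags with DHT against 47 with vehicle. SLC45A3, a prostate-restricted transporter, had 106 with DHT against 48 with vehicle. FKBP5, a co-chaperone of steroid receptors, had a doubled peak of 69 tags with DHT against 25 with vehicle over a promoter and 1 of 50 with DHT against 17 with vehicle in an intron. Genes of metabolism and transport were among the 26. SORD, sorbitol dehydrogenase, had 118 tags with DHT against 18 with vehicle, SLC26A3 had up to 112 with DHT against 15 with vehicle, and GNMT, glycine N-methyltransferase, had up to 51 with DHT against 22 with vehicle. ELL2, a transcription elongation factor, had 117 tags with DHT against 24 with vehicle, and TPD52, a protein of vesicle traffic, had up to 90 with DHT against 21 with vehicle. The lowest of the 26 were those near HPGD and SNAI2 (33 tags with DHT each, 10 and 14 with vehicle) and near NDRG1 (32 with DHT and 16 with vehicle). Of the 37 doubled peaks near these genes, 7 held a response element within 500 bp of the centre (18.9%, 9.48% to 34.2%). The share over all doubled peaks, 18.5%, was close to this.

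**Figure D5:**
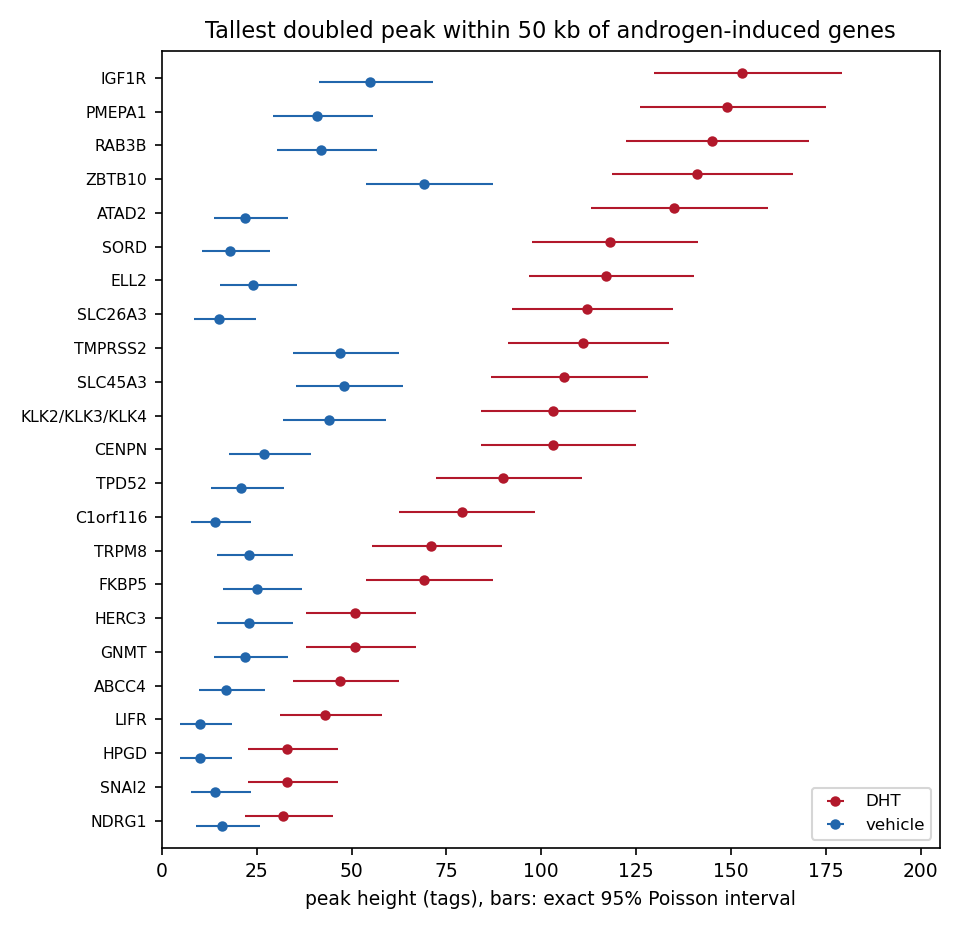
Peak height in tags (horizontal) with DHT (red) and vehicle (blue) of the tallest doubled peak in or within 50 kb of 25 androgen-induced genes, with the 3 kallikrein genes on 1 row since they share the peak; bars are exact 95% Poisson intervals. DHT heights run from 153 tags at IGF1R down to 32 at NDRG1.

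Over the pairs in reach of androgen-induced genes the median ratio was 1.30, against 1.11 over all eligible pairs. In the other gene groups fewer genes had a doubled peak in reach, and the share of pairs that doubled was lower. Over all protein-coding genes 12.8% had 1 in reach, and 10.3% of all eligible pairs had doubled. Pair shares were below 10.3% near androgen-repressed genes (8.33%), genes shared with the glucocorticoid receptor (7.81%), Wnt targets (6.45%) and risk locus genes (8.47%). They were above it near luminal markers (13.2%), AP-1 and KLF genes (10.7%) and genes the study tabulated as increased (17.4%) or decreased (11.1%). Of 17 androgen-repressed genes 3 had a doubled peak in reach (17.6%, 6.19% to 41.03%), MET, the hepatocyte growth factor receptor (61 tags with DHT against 16 with vehicle), CLU, the chaperone clusterin (85 with DHT, 27 with vehicle), and UGT2B11, a glucuronosyltransferase (35 with DHT, 11 with vehicle). Of 20 androgen-responsive genes that are also targets of the glucocorticoid receptor, 4 had a doubled peak in reach, ANGPTL4, DDIT4, FKBP5 and NFKBIA, the inhibitor of NF-kappaB (111 with DHT, 34 with vehicle). Glycosylation genes had a doubled peak in reach in 6 of 15 cases and 7 of 51 pairs doubled (13.7%), among them ST6GALNAC1, a sialyltransferase (97 with DHT, 41 with vehicle), and GCNT2, a branching enzyme (78 with DHT, 26 with vehicle). In the lipid and sterol group 4 of 18 genes had 1, with SCAP, the escort protein of the sterol regulators, at 112 tags with DHT against 40 with vehicle, and 4 of 77 pairs had doubled (5.19%). Of 9 polyamine genes 2 had 1, and 3 of 21 pairs had doubled (14.3%). These were ODC1, the first enzyme of polyamine synthesis (59 with DHT, 22 with vehicle at its tallest), and SMS (59 with DHT, 23 with vehicle). Of 14 housekeeping genes 1 had a doubled peak in reach, PGK1 (33 with DHT, 15 with vehicle), and of 15 cell cycle and replication genes none had, over 45 eligible pairs (0%, to 20.4% of genes). Among 18 Wnt target genes 2 had 1, CD44, a cell adhesion receptor (80 with DHT, 33 with vehicle), and SOX4, a transcription factor (71 with DHT, 16 with vehicle). Luminal prostate markers had 1 in 5 of 14 cases, secretory pathway genes in 2 of 13, AP-1 and KLF genes in 2 of 12 and genes at prostate cancer risk loci in 9 of 55. Of the markers of other cell types, 1 of 4 leukocyte genes had 1, CD3E (56 with DHT, 23 with vehicle), and none of 4 basal, 4 stromal, 2 endothelial or 3 neuroendocrine genes did. Of genes that the study tabulated as androgen-regulated, 6 of 16 increased and 3 of 12 decreased ones had 1, and these lists are not independent of the study.

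Few doubled peaks carried TCF7L2. Of 2305, 107 overlapped a TCF7L2 peak (4.64%, 3.86% to 5.58%), against 3590 of 19971 other pairs (18.0%, 17.5% to 18.5%). The share was also low in halved pairs (1.96%, 0.840% to 4.51%), in peaks found only with DHT (2.32%, 1.41% to 3.79%) and in pairs with a ratio from 0.5 to under 0.8 (7.25%, 6.22% to 8.43%). Away from promoters the shares were 4.10% (3.34% to 5.01%) of doubled peaks and 10.1% (9.61% to 10.6%) of other pairs. Over promoters they were 13.6% (8.80% to 20.5%) of doubled peaks and 33.6% (32.5% to 34.8%) of other pairs. The share also moved with the vehicle height. Away from promoters, pairs with a vehicle height from 15 to under 30 tags had TCF7L2 in 4.50% (3.42% to 5.89%) of doubled peaks and 6.07% (5.01% to 7.33%) of the others, with overlapping intervals. From 30 to under 60 tags the share was 4.12% (2.47% to 6.79%) of doubled peaks and 9.37% (8.69% to 10.1%) of the others. The TCF7L2 cells grew in serum that was not stripped, at another passage, and the part of these culture differences in the result was not tested. The overlapping TCF7L2 peaks had a median of 42 tags in doubled peaks and 30 in other pairs.

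None of the 5 doubled peaks with the tallest TCF7L2 peaks overlapped a promoter. One of 207 tags was 1030 kb from NR2F1, an orphan nuclear receptor gene, within a peak of 51 tags with DHT against 20 with vehicle. One of 206 tags was in an intron of DENND5B, where H3K27Ac had 77 tags with DHT against 34 with vehicle. The peak nearest to LYPLAL1 had 82 with DHT against 17 with vehicle with a TCF7L2 peak of 179 tags. SEMA3C, a secreted semaphorin, held 2 TCF7L2 peaks, the taller of 176 tags, in an intronic peak of 82 tags with DHT against 11 with vehicle. SYBU had 37 with DHT against 18 with vehicle with a TCF7L2 peak of 162 tags, and here the H3K27Ac intervals overlapped. Of the 427 doubled peaks with a response element 3.75% overlapped a TCF7L2 peak, and of those without 4.85%. Other pairs went the same way, with 12.4% of those with an element and 18.4% of those without. These 4 shares include pairs over promoters. In other pairs TCF7L2 was more frequent there (33.6% against 10.1% away from promoters) and elements were less frequent. The part of promoters in the 4 shares was not tested, and no intervals were computed for them.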

How the data were processed

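For each of the 3 ChIP-seq libraries a deposited list gave peak positions and heights. The value is a signal, the tag pileup from Sole-search, the peak caller of the authors. Scaling to read number is not given in the sources used here, and the depth of each library is unknown. The paper names Bowtie 2 for H3K27Ac and ELAND for TCF7L2 against hg19, whereas the notes of the submitters list CASAVA 1.8.2, BWA and Bowtie2. Peaks were called library by library. An input library had no peak list and was not analysed here.

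Widths are ends minus starts. Intervals for heights are exact Poisson and those for shares are Wilson, at 95%, for counting error only, and leave out the choice of the highest point. Gene starts were those of GENCODE 44 lifted to GRCh37, which shares its coordinates with hg19, and 0 peaks ran beyond a chromosome end. Older symbols were matched through RefSeq (GRCh38.p14, no coordinate used), and 290 of 295 listed symbols were matched. Motif windows spanned 500 bp on either side of the DHT peak centre in GRCh37. The members, gene lists and motifs were chosen with earlier results of these data known. Named by rule were the 15 largest ratios, 10 tallest, 5 largest differences and 5 tallest TCF7L2 peaks, the 3 pairs next to each limit, genes with 3 or more doubled peaks within 50 kb and listed genes in reach, of which not all are given. Some items are not reported here. The overlap and motif code was tested on simulated data. With 1 library per condition no test between conditions was made. Alternatives covered membership, promoter window, TCF7L2 list, motif and distance to genes. Python 3.11.15, pandas 2.3.3, numpy 2.4.6, scipy 1.17.1, pyfaidx 0.9.0.4 and matplotlib 3.10.9 were used.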

Additional observations from a re-analysis of the deposited data

How the results depend on the processing

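No paired analysis was possible because each condition had 1 library. In every alternative for which these shares were computed (all but the DHT height of 20), doubled peaks had the lower promoter share, the lower TCF7L2 share and the higher element share beside the other pairs. The number of doubled peaks was 1451 with a DHT height of 45, 4183 with a ratio of 1.5 and 1400 with a ratio of 2.5, and 1768 to 3017 in the other 4 alternatives. The promoter share was 6.82% with a height of 45, 9.01% with a ratio of 1.5, 8.20% with promoters of 2000 bp on either side and 16.1% with starts of all annotated genes (44.6% of other pairs). The TCF7L2 share was 6.53% with a ratio of 1.5 and 3.73% with the 15000 tallest TCF7L2 peaks. The element share was 20.3% with a height of 45 and 15.9% with a ratio of 1.5. It was 0.304%, 2.86% and 69.9% with 0, 1 and 3 changed bases (0.0451%, 0.646% and 46.7% of other pairs), 10.8% within 200 bp and 30.7% over the whole DHT peak (3.12% and 21.3% of other pairs). Androgen-induced genes in reach numbered 18 at 10 kb, 32 at 100 kb and 28 by nearest start only. Dividing DHT heights by the median ratio of all pairs, 1.07, left 1807 doubled peaks. The unknown depth of both libraries, the single library per condition and the height limit bound what these lists can show. A doubled height near 30 tags rests on few tags, and peaks that did not pair one to one, 1492 with a DHT height of 30 or more, were left out.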
